A study of Mus musculus with 14 samples.

Results

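The Kruppel-like factors are a family of transcription factors, of which 17 (Klf1 to Klf17) were considered and 10 examined in depth: Klf1, Klf2, Klf3, Klf4, Klf6, Klf7, Klf9, Klf10, Klf12 and Klf13. They were chosen by symbol, through the gene names given to the array's probe sets, and with results of these arrays in view, above all the lower Klf2 of old MPP4. Of the 10 factors, 8 were matched to a probe set, each to 1, among the 19155 genes measured; Klf3 and Klf9 were not matched and are not analysed here. The other 7 members of the family, Klf5, Klf8, Klf11, Klf14, Klf15, Klf16 and Klf17, were all measured and are given for comparison.

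The arrays profiled multipotent progenitors from bone marrow of wild-type C57BL/6 mice. The 4 groups were MPP4 of old mice (24 months, 3 arrays), MPP4 of young mice (8 to 10 weeks, 5 arrays), MPP3 of old mice (3 arrays) and MPP3 of young mice (3 arrays). Both populations were Lin- cKit+ Sca-1+ cells. MPP4, the lymphoid-biased population, were sorted as Flk2+, and MPP3, the myeloid-biased one, as Flk2- CD48+ and, by the series description, CD150-. The methods text gives the opposite CD150 gate for MPP3, and this was not reconciled. Each array was made from amplified RNA of 20000 double-sorted cells. Arrays of a group are biological replicates by their labels, which do not say how many mice were pooled for each. No animal carried a transgene or received a treatment, so the design has age and population as its only named factors. The young arrays were also deposited with an earlier series, so that age and the series of origin cannot be told apart.

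All members of the family bind DNA through 3 zinc fingers at the carboxyl end, which recognise CACCC boxes and GC-rich sites, and they differ in the part that recruits other proteins. Klf1, Klf2, Klf4, Klf6 and Klf7 act mostly as activators. Klf3, Klf8 and Klf12 carry a short motif that binds the corepressor CtBP, while Klf9, Klf10, Klf11, Klf13, Klf14 and Klf16 bind the corepressor Sin3. In blood formation, Klf1 is the master activator of red cell genes, Klf2 holds lymphocytes in quiescence and directs their trafficking, and Klf4 promotes monocyte differentiation. Several members are also induced within minutes to hours by growth factors or stress.

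The promoters of Klf2 and Klf4 are shown because these activators had the most separated and the largest age differences in MPP4 among the 8 factors. Both windows end shortly after the annotated start and were taken from RefSeq on build GRCm38.p6, at chr8:72318812-72319111 on the plus strand for Klf2 and at chr4:55532426-55532725 on the minus strand for Klf4. Capitals mark matches to CACCC and CCGCCC on either strand (GGGTG and GGGCGG on the other) and to the consensus of the MEF2 factors, which act upstream of Klf2 in endothelial cells.
Klf2: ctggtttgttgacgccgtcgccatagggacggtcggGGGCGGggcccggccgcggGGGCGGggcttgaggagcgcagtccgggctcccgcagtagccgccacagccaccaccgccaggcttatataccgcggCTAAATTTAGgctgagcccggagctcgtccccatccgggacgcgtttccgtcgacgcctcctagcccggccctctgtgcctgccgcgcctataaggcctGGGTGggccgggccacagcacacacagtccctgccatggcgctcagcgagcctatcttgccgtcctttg
Klf4: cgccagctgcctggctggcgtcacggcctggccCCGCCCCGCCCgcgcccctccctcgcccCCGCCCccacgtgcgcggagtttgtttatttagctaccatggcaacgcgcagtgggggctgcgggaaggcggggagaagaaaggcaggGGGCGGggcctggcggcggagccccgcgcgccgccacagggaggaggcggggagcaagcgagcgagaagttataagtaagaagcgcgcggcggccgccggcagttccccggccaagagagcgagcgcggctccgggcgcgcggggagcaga
The Klf2 window held 1 match to the MEF2 consensus, CTAAATTTAG, whose first base lies 118 bases before the start, together with 1 CACCC box and 2 CCGCCC matches. The Klf4 window held 4 CCGCCC matches, 2 of them overlapping by 1 base, and no CACCC box or MEF2 match. Of 32851 mouse promoter windows of this length, 57.5% held a CACCC box, 35.7% a CCGCCC match and 0.557% a MEF2 match. A promoter was matched for 7 of the 8 measured factors (all but Klf10), and Klf2 was the only one of the 7 with a MEF2 match. Such matches describe letters and are not shown to be bound sites.

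Expression is given as the deposited normalized value of the array, which depends only on a probe set's rank: it is the negative natural logarithm of the share of probe sets ranked at or above it. A value near 0 is the dimmest end of the array and 0.662 to 0.675 was the median of an array. Values of 1.35 and 1.56, for example, place a gene in the top 25.9% and 21.0% of ranks. Differences between groups are differences of this value, not fold changes, and since every probe has its own brightness, values were compared between groups for 1 gene and never between genes. Klf1 lay under the median on all 14 arrays, as did Klf8 and Klf17, so that these 3 were measured in the dimmer part of the array.

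Arrays of a group also differed in ways that the labels do not name. Clustering on the dimmest probe sets was set to divide the 14 arrays in 2 sets. Set 1 held all 6 old arrays with young MPP4 replicates 1 and 2 and young MPP3 replicate 1. Set 2 held the other 5 young arrays, so that array set and age were partly tangled. The female transcript Xist was at 1 or above on 4 arrays, young MPP4 replicates 1, 4 and 5 and young MPP3 replicate 1, and on none of the old arrays. The Y-linked transcript Eif2s3y was at 0.0261 on young MPP4 replicate 1 and 0.0221 on young MPP3 replicate 1. On young MPP4 replicates 4 and 5 it was at 0.855 and 1.89, so that these arrays had signal for both transcripts. The sort was visible in Flt3, the gene of Flk2. It was at 3.29 to 3.53 in old MPP4 and 2.77 to 3.53 in young MPP4. In MPP3 it was at 1.42 to 2.10 in old cells and 2.02 to 2.20 in young cells. Cd48, another gene of the sort, was higher in old MPP4 than in old MPP3 (0.200 ± 0.0619). In young mice it was lower in MPP4 than in MPP3 (-0.319 ± 0.1165), with overlap. Summed over 8 mature neutrophil markers, old MPP4 reached 3.07 to 4.52 and young MPP4 2.77 to 4.27. Old MPP3 reached 7.61 to 11.6 and young MPP3 4.97 to 6.998. Of the 8, Ltf, Mmp8 and Mmp9 lay under the median on every array. Of 7 B cell markers measured, 7 had a lower mean in MPP4 than in MPP3 in young mice (median -0.376). In old mice 6 of the 7 did (median -0.133).

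**Figure D1:**
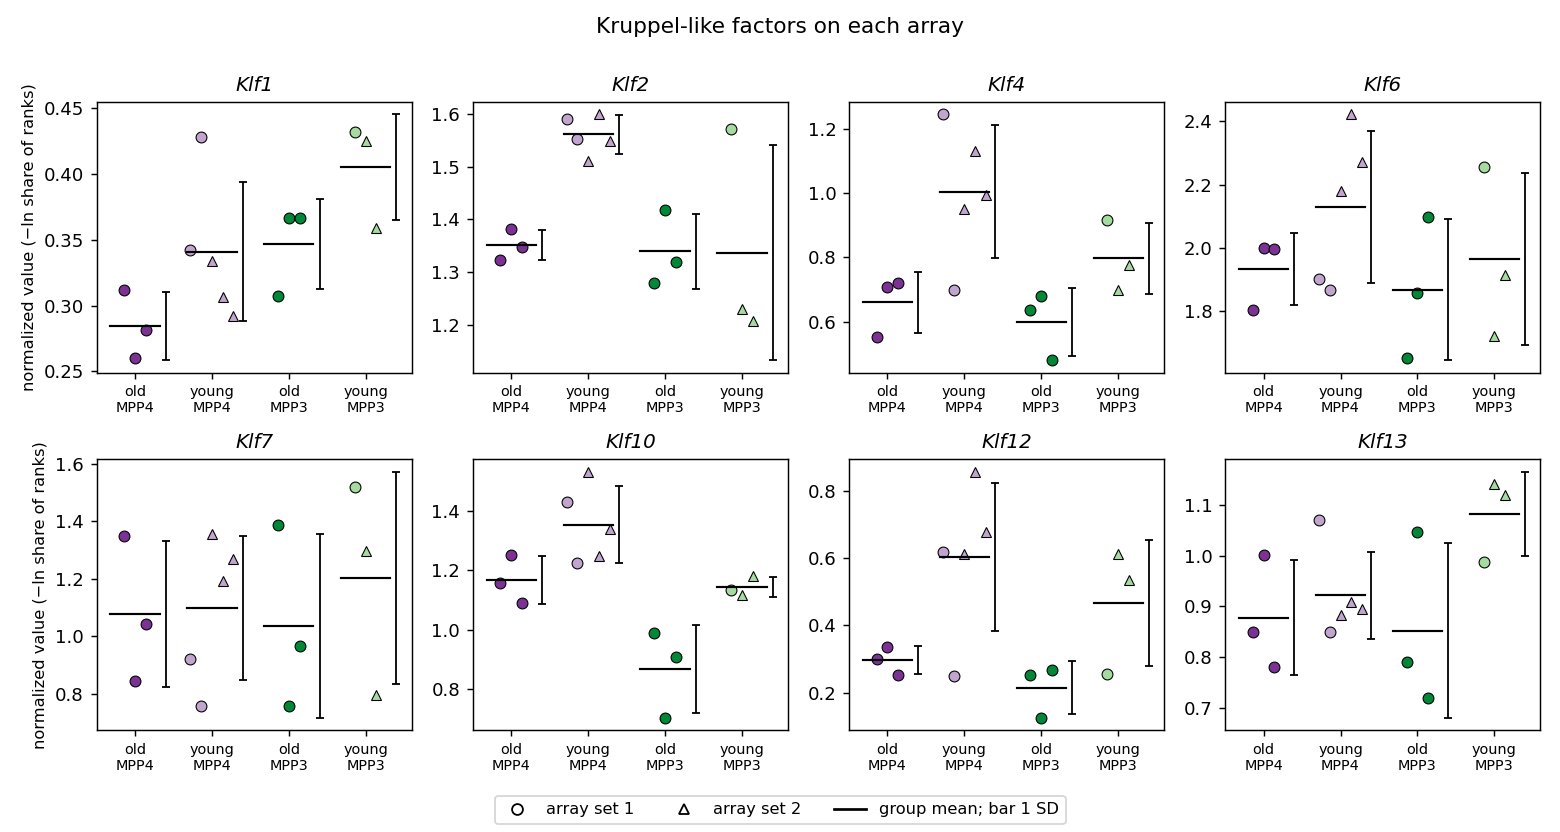
Normalized values (vertical axis, negative natural log of the share of ranks, a separate scale for each gene) of the 8 measured factors on each of 14 arrays, by group. Circles are arrays of set 1 and triangles arrays of set 2, horizontal lines are group means and bars 1 SD. Klf2 of old MPP4 (1.32 to 1.38) lies below every young MPP4 array (1.51 to 1.60), and Klf10 of old MPP3 (0.702 to 0.990) lies below every array of the other groups.

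Activator Klf2, a factor of resting lymphocytes, was compared first. In old MPP4 its values were 1.32, 1.38 and 1.35, against 1.59, 1.55, 1.51, 1.60 and 1.55 in young MPP4. The 3 old arrays thus lay together below the 5 young arrays, and the gap between the groups (0.129) exceeded the range within either of them. In MPP3 the picture was different, with 1.28, 1.42 and 1.32 in old and 1.57, 1.23 and 1.21 in young cells. Here the groups overlapped fully, because 1 young array, replicate 1, was as high as young MPP4 and the other two were below all the old ones. The mean differed by -0.210 ± 0.0263 (SE) between old and young MPP4 and by 0.00197 ± 0.111 between old and young MPP3. The difference between these differences was -0.212 ± 0.105 and did not pass (adjusted p = 0.838, limma over all genes). The means were 1.35 ± 0.0288 (SD) in old MPP4, 1.56 ± 0.0361 in young MPP4, 1.34 ± 0.0709 in old MPP3 and 1.34 ± 0.204 in young MPP3. Young MPP4 was thus the highest, and the other 3 groups lay within their spread.

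Young MPP3 replicate 1 bears on every Klf2 comparison with that group. It was an array of set 1 with Xist signal, and the old arrays were all of set 1. When only arrays of set 1 were used, Klf2 differed by -0.221 between old and young MPP4 (3 arrays against 2) and by -0.234 between old and young MPP3 (3 arrays against 1), and the difference of differences was 0.0124. Over arrays with Xist under 1, the same age differences were -0.181 in MPP4 and 0.120 in MPP3. Since the old and young MPP4 arrays did not overlap for Klf2, any choice among them gives a lower value in old MPP4. The sign there is thus no check on array set or sex. The MPP3 difference, near 0 over all arrays, was positive or negative depending on which arrays were used. It lay between -0.0625 and 0.120 when each array was left out in turn. The part of sex and array set in these values was not tested further.

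Klf4, a zinc finger factor of monocytes and of reprogramming to pluripotency, showed the largest mean difference with age in MPP4. Its values were 0.551, 0.708 and 0.721 in old MPP4 and 1.25, 0.697, 0.950, 1.13 and 0.994 in young MPP4. Of the young arrays, 4 lay above all old ones, and replicate 2 lay among the old arrays. In MPP3, the values were 0.637, 0.680 and 0.480 in old cells and 0.916, 0.699 and 0.777 in young cells. The old arrays were all below the young ones there, by a gap of only 0.0188. The differences were -0.344 ± 0.118 in MPP4 and -0.198 ± 0.0794 in MPP3. By rank, the mean of Klf4 fell in the upper 51.7% in old MPP4 and the upper 36.6% in young MPP4, with 54.9% in old MPP3 and 45.1% in young MPP3. The old minus young difference in MPP4 was -0.311 over arrays of set 1 and -0.164 over arrays with Xist under 1, a smaller value based on 3 old and 2 young arrays.

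The remaining activators were less separated. Klf6, a widely expressed and inducible factor, was at 1.80, 2.00 and 2.00 in old MPP4 against 1.90, 1.87, 2.18, 2.42 and 2.27 in young MPP4. It was at 1.65, 1.86 and 2.10 in old MPP3 against 2.26, 1.72 and 1.92 in young MPP3. Both pairs of groups overlapped, and in MPP4 the 3 high young arrays were those of set 2. The Klf6 difference was -0.195 ± 0.137 over all MPP4 arrays and 0.0485 over those of set 1. Klf7, another broadly expressed activator, spread widely within each group, between 0.845 and 1.35 in old MPP4, 0.758 and 1.36 in young MPP4, 0.756 and 1.39 in old MPP3, and 0.795 and 1.52 in young MPP3. Its differences with age, -0.0212 ± 0.167 in MPP4 and -0.167 ± 0.247 in MPP3, were smaller than that spread.

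Klf1, the erythroid activator, lay under the median of every array in both populations. It was at 0.312, 0.260 and 0.281 in old MPP4 against 0.343, 0.428, 0.334, 0.307 and 0.292 in young MPP4. In MPP3 it was at 0.307, 0.367 and 0.367 in old cells against 0.432, 0.425 and 0.359 in young cells. The age differences of Klf1, -0.0565 ± 0.0332 in MPP4 and -0.0589 ± 0.0343 in MPP3, were alike in size, and the groups overlapped in both.

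Klf10, a repressor induced by transforming growth factor beta, was separated between the populations at both ages and between the ages in MPP3. Its values were 1.16, 1.25 and 1.09 in old MPP4 and 1.43, 1.22, 1.53, 1.25 and 1.34 in young MPP4. In MPP3 they were 0.990, 0.702 and 0.906 in old cells and 1.13, 1.12 and 1.18 in young cells. Old MPP3 lay below all other arrays, whereas old and young MPP4 overlapped through old replicate 2 and young replicates 2 and 4. The age difference was -0.188 ± 0.0772 in MPP4 and -0.277 ± 0.0791 in MPP3. The means were 1.17 ± 0.0811 (SD) in old MPP4, 1.35 ± 0.129 in young MPP4, 0.866 ± 0.148 in old MPP3 and 1.14 ± 0.0342 in young MPP3. Old MPP3 was the lowest and young MPP4 the highest, and old MPP4 and young MPP3 between them did not differ beyond their spread.

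The CtBP-binding repressor Klf12 was dim on most arrays. It was at 0.300, 0.335 and 0.253 in old MPP4 and at 0.618, 0.249, 0.614, 0.858 and 0.677 in young MPP4. The old arrays and young replicate 2 lay together at the low end, and the other 4 young arrays lay above them. Old MPP3 was at 0.254, 0.125 and 0.266, against 0.256, 0.612 and 0.535 in young MPP3, where replicate 1 was level with the old arrays. The differences were -0.307 ± 0.121 in MPP4 and -0.253 ± 0.104 in MPP3. Of the 4 high young MPP4 arrays, 3 were of set 2, and both high arrays of young MPP3 were of set 2. Within set 1 the Klf12 difference was -0.137 in MPP4 and -0.0406 in MPP3, smaller than over all arrays.

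Klf13, which binds Sin3 and regulates a chemokine gene in T cells, was at 0.850, 1.00 and 0.780 in old MPP4 and 1.07, 0.849, 0.883, 0.909 and 0.896 in young MPP4. It was at 0.790, 1.05 and 0.720 in old MPP3 and 0.988, 1.14 and 1.12 in young MPP3. Old replicates 1 and 2 lay among the young arrays in MPP4 and old replicate 2 in MPP3, and young MPP3 had the highest mean (1.08 ± 0.0831, SD). The age difference was -0.0441 ± 0.0649 in MPP4 and -0.230 ± 0.0984 in MPP3.

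**Figure D2:**
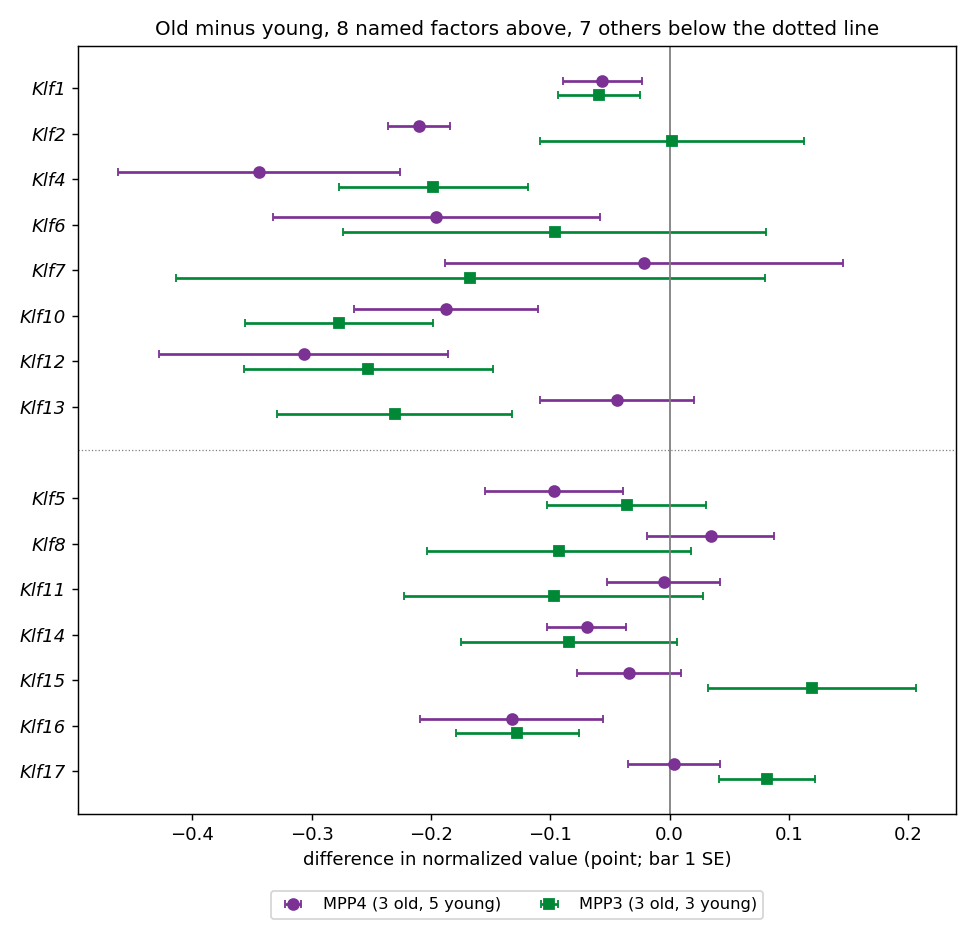
Old minus young difference in normalized value (horizontal axis) for the 8 measured factors and the other 7 members of the family (vertical axis), with MPP4 as circles above MPP3 as squares, and bars of 1 SE. All 8 factors lie left of 0 in MPP4, and in MPP3 all but Klf2, at 0.00197.

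Across the 8 factors, the mean was lower in old than in young MPP4 for 8 of 8, compared with 50.2% of all genes, and lower in old than in young MPP3 for 7 of 8, compared with 49.9%. The same 7 were lower in both populations, as were 29.7% of genes. The median difference was -0.192 in MPP4 and -0.182 in MPP3, while that over all genes was -0.000171 and 0.000183. Since the factors were chosen with these age differences known, the counts describe the set and support nothing beyond it. Of the 7 other members of the family, 5 were lower in old MPP4 and 5 in old MPP3, so that 13 and 12 of 15 measured factors had a lower mean with age, with medians of -0.0696 and -0.0962. Klf16, a Sin3-binding factor, was the one with the largest size among the 7 in both, at -0.132 ± 0.0766 in MPP4 and -0.128 ± 0.0516 in MPP3, and in MPP3 its old arrays (1.15 to 1.18) lay below the young ones (1.22 to 1.40). In bulk samples like these, fewer cells that express a factor and less of its RNA per cell cannot be told apart.

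No factor passed the test across all genes. With limma and Benjamini-Hochberg adjustment, 0 of 8 were called between old and young MPP4, where 0% of genes were called, and adjusted p lay between 0.169 (Klf2) and 0.982 (Klf7). At an unadjusted p under 0.05 the count was 4 (Klf2, Klf4, Klf10 and Klf12), against 9.77% of genes. Between old and young MPP3, 0 of 8 factors and 0% of genes were called, and adjusted p lay between 0.521 (Klf10) and 0.999 (Klf2). There, 1 factor (Klf10) was under 0.05 without adjustment, compared with 8.19% of genes. A statistic of the SAM type called 0 of 8 in each population. For Klf2, 1 alternative passed in MPP4: with arrays weighted by quality its adjusted p was 0.0428 (0.566 at the highest over the alternatives), and 304 genes were called, against 0 without weights.

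The separation of the arrays was counted as well. Without overlap, 1 factor (Klf2) was lower in old than in young MPP4, as were 4.01% of genes, and 0 were higher, as were 3.28%. In MPP3, 2 factors (Klf4 and Klf10) were lower in old cells without overlap, compared with 8.04% of genes, and 0 were higher, compared with 6.14%.

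To compare the populations, MPP4 was set against MPP3 at each age. In old mice, Klf10 was 0.301 ± 0.0866 higher in MPP4, the 3 MPP4 arrays (1.09 to 1.25) all lying above the 3 MPP3 arrays (0.702 to 0.990). In young mice, it was 0.211 ± 0.0724 higher, with 1.22 to 1.53 in MPP4 against 1.12 to 1.18 in MPP3. Klf10 was the 1 factor of 8 that was higher in MPP4 without overlap at both ages, a pattern shown by 0.856% of all genes. Its adjusted p was 0.389 in old and 0.351 in young mice, and leaving out each array in turn kept the difference between 0.219 and 0.362 in old mice and between 0.167 and 0.244 in young mice. The groups did not overlap, so leaving out an array could not change the sign. These comparisons share no array with each other, but the factors were chosen with results of these arrays known. They are therefore no independent support for each other.

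Other factors differed between the populations in young mice only in part. Klf2 was 0.224 ± 0.0818 higher in young MPP4 than in young MPP3 (adjusted p = 0.381), but the groups overlapped through young MPP3 replicate 1. Without that array the difference was 0.342 and its adjusted p 0.0171, with 108 genes called in place of 25, while over all alternatives adjusted p ran between 0.0144 and 0.725. In old mice Klf2 differed by 0.0119 ± 0.0422. Klf13 was lower in young MPP4 than in young MPP3, by -0.161 ± 0.0583 (adjusted p = 0.377), and the difference in old mice was 0.0251 ± 0.105. Klf1 was lower in MPP4 by similar amounts at both ages, -0.0623 ± 0.0278 in old mice and -0.0647 ± 0.0361 in young mice, with overlapping arrays.

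**Figure D3:**
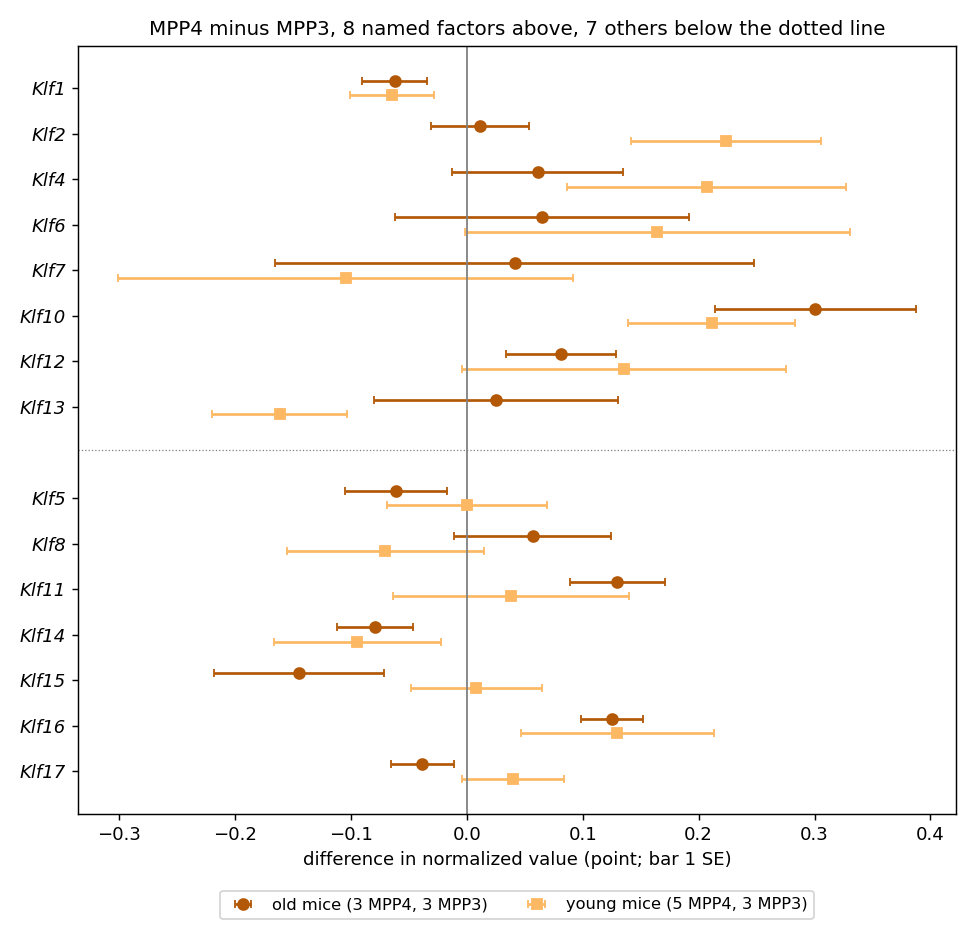
MPP4 minus MPP3 difference in normalized value (horizontal axis) for the 8 measured factors and the other 7 members of the family (vertical axis), with old mice as circles above young mice as squares, and bars of 1 SE. Klf10 lies right of 0 at both ages (0.301 and 0.211), and Klf2 only in young mice by more than its SE.

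The test across all genes called 0 of 8 factors between MPP4 and MPP3 in old mice, where 0% of genes passed, and 0 of 8 in young mice, where 0.131% passed (25 genes). At an unadjusted p under 0.05, the count was 1 (Klf10) in old mice, against 9.83% of genes, and 3 (Klf2, Klf10 and Klf13) in young mice, against 11% of genes. The SAM-type statistic called 0 of 8 at each age. In old mice, 1 factor was higher in MPP4 without overlap (9.03% of genes) and 0 were lower (7.6%). In young mice, 1 was higher (3.74% of genes) and 0 were lower (3.72%). The median over the 8 factors was 0.0513 in old and 0.150 in young mice. Of the other family members in old mice, Klf11 (0.130 ± 0.0409) and Klf16 (0.125 ± 0.0268) were higher in MPP4 without overlap, and Klf14 (-0.0793 ± 0.0328) was lower. All 3 are Sin3-binding, so that this class had no common direction. None passed the adjusted test, and none of the 3 was separated in young mice.

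Whether age acted differently in MPP4 and MPP3 was tested with an interaction term over all 14 arrays. It called 0 of 8 factors and 0% of genes, and 0 of 8 factors were under an unadjusted p of 0.05, compared with 6.26% of genes. Besides Klf2, the largest terms were those of Klf13 (0.186 ± 0.118) and Klf4 (-0.146 ± 0.159). With array weights, the Klf2 term was -0.272 and passed (adjusted p = 0.0461), while the highest adjusted p over the alternatives was 1. The Klf2 term passed in that setting only, and over arrays of set 1 it had the other sign. A different age difference in the 2 populations was therefore not shown for any of the 8.

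Genes that respond to stimulation as fast as some Kruppel-like factors were followed through 14 immediate early genes. Their mean was lower in old MPP4 for 13 of 14 and in old MPP3 for 11 of 14, with medians of -0.108 and -0.172, and none passed the adjusted test. Fosb, a partner of Jun proteins in the AP-1 factor, differed most in MPP4 (-0.530 ± 0.181, adjusted p = 0.448), at 2.66, 2.96 and 2.95 in old against 3.68, 2.87, 3.57, 3.44 and 3.38 in young cells. Young MPP4 replicate 2, which was among the old arrays for Klf4 and Klf12, was so for Fosb as well. In MPP3, Egr3 (-0.249 ± 0.0919) and Nr4a1 (-0.476 ± 0.181), 2 inducible transcription factors, had the strongest statistics, with adjusted p of 0.585 and 0.594.

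The summed value of the 14 genes was 27.3, 28.2 and 27.1 in old MPP4 and 33.1, 26.0, 30.6, 29.7 and 29.0 in young MPP4. In MPP3 it was 27.2, 24.0 and 27.7 in old cells and 30.8, 26.8 and 28.4 in young cells. Within young MPP4, replicate 1 had the highest sum and the highest Klf4 and Klf13. Replicate 2 had the lowest sum and the lowest Klf4, Klf6, Klf7, Klf10, Klf12 and Klf13, but the highest Klf1. Within old MPP4, the array with the highest sum, replicate 2, had the highest Klf2, Klf6, Klf10, Klf12 and Klf13. It had the lowest Klf1 and Klf7 of its group. Within young MPP3, replicate 1 had the highest sum and the highest Klf1, Klf2, Klf4, Klf6 and Klf7, but the lowest Klf12 and Klf13. The old MPP3 array with the lowest sum, replicate 2, had the lowest Klf7, Klf10 and Klf12, but the highest Klf1, Klf2, Klf4 and Klf13 of its group. On these arrays some factors ran with the sum and others against it, and which ones did so differed between the groups. The part of these inducible genes in the factors' values was not tested.

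**Figure D4:**
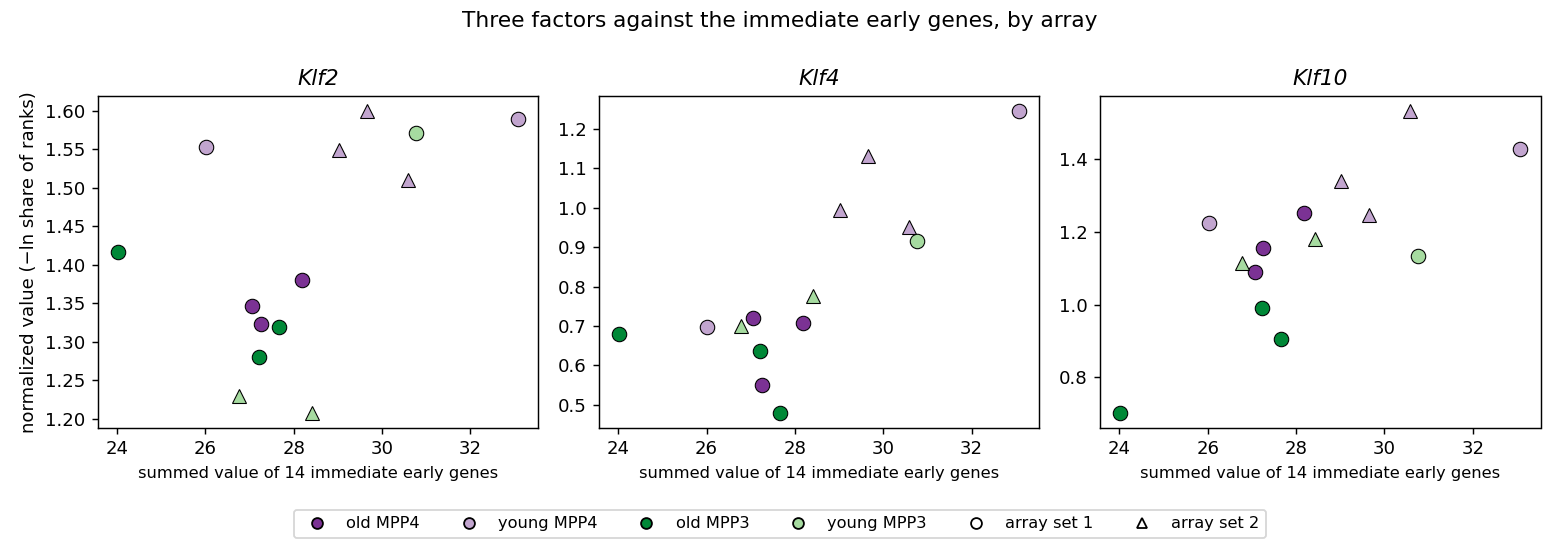
Normalized value of Klf2, Klf4 and Klf10 (vertical axis, a separate scale for each) against the summed normalized value of 14 immediate early genes (horizontal axis) on each of 14 arrays. Colours are groups, circles arrays of set 1 and triangles arrays of set 2. Young MPP4 replicate 1, with the highest sum (33.1), also has the highest Klf4 (1.25), while old MPP3 replicate 2, with the lowest sum (24.0), has the lowest Klf10 (0.702) but the highest Klf2 (1.42) and Klf4 (0.680) of its group.

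Regulators upstream of Klf2 and Klf4 comprised 9 genes of the MEK5 and ERK5 kinase pathway, the MEF2 and Foxo factors and ubiquitin ligases. None passed the adjusted test in any of the 4 group comparisons. In old MPP4, 7 of 9 were higher than in young MPP4, led by Mef2a (0.194 ± 0.0319, adjusted p = 0.218), at 2.31, 2.25 and 2.22 against 2.07, 2.11, 2.10, 2.03 and 2.02. The direction of Mef2a was thus opposite to that of Klf2 in the same arrays. Map2k5, the gene of MEK5, was lower by -0.198 ± 0.0854 in old than in young MPP4, with overlap, and by -0.249 ± 0.0816 in old than in young MPP3, without overlap. Mef2c, also a lymphoid factor, was higher in MPP4 than in MPP3, by 0.590 ± 0.0964 in old mice and 0.402 ± 0.131 in young mice.

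Of 10 corepressors and coactivators through which the family acts, 9 were higher in old than in young MPP4 and 5 in old than in young MPP3. Ep300, the coactivator p300, had the strongest statistic in MPP4 (0.342 ± 0.0982, adjusted p = 0.392), followed by Hdac3, a histone deacetylase (0.115 ± 0.0440). Ep300 was at 2.39 to 2.52 in old MPP4, all of set 1. In young MPP4 it was at 2.37 and 2.14 on arrays of set 1 and 1.92 to 2.03 on those of set 2. The part of array set in its difference was not tested. Of the related Sp factors, which bind the same GC-rich sites, 7 of 9 were measured, and 5 were higher in old MPP4 and 4 in old MPP3. Sp7, which had the strongest statistic in MPP4, differed by -0.0605 ± 0.0293. Sp5, Sp6, Sp7 and Sp8 lay under the median on every array. None of the 17 genes passed in either comparison.

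Most genes around Klf1 had a lower mean in MPP4 than in MPP3. Of 14 erythroid partners and targets, 12 were measured, and 9 were lower in MPP4 than in MPP3 in old mice and 10 in young mice. Gata1, the partner of Klf1 in red cell precursors, was lower in MPP4 without overlap at both ages, by -0.237 ± 0.0342 in old mice (adjusted p = 0.222) and -0.261 ± 0.0709 in young mice (adjusted p = 0.245). Tfr2, a transferrin receptor, was lower by -0.238 ± 0.0308 in young MPP4 than in young MPP3 (adjusted p = 0.0535). In old mice it differed by -0.0292 ± 0.0572, with overlap. Bcl11a was higher in MPP4, by 0.362 ± 0.180 in old mice without overlap and 0.115 ± 0.142 in young mice with overlap. Without overlap, 3 of the 12 were lower in old MPP4 (7.6% of genes) and 1 was higher (9.03%). In young MPP4, 5 were lower (3.72% of genes) and 0 were higher (3.74%). The summed value of the 12 genes was 11.9 to 12.2 in old MPP4 and 11.9 to 12.6 in young MPP4, against 11.2 to 13.3 in old MPP3 and 13.4 to 14.1 in young MPP3. With age, 6 of 12 were lower in MPP4 and 10 of 12 in MPP3. In MPP3, Tfr2 (-0.203 ± 0.0583) and Zfpm1 (-0.280 ± 0.0819), the cofactor of Gata1, were lower without overlap, as were 8.04% of genes. Zfpm1 was lower without overlap in old MPP4 as well (-0.177 ± 0.0661), as were 4.01% of genes. Neither gene passed in either population.

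Lymphocyte trafficking genes linked to Klf2 in T cells had no common direction. Of 5 measured, 3 were higher and 2 lower in old than in young MPP4, with a median of 0.000375. S1pr1, the sphingosine phosphate receptor through which Klf2 acts on T cell exit, was at 1.11, 1.36 and 1.29 in old MPP4 and 1.38, 1.34, 1.30, 1.45 and 1.32 in young MPP4, a difference of -0.102 ± 0.0603 with overlap. Itga4, an integrin chain, was lower in young MPP4 than in young MPP3 (-0.278 ± 0.0787), and Itgb7, one of its partner chains, was higher in old MPP4 than in old MPP3 (0.163 ± 0.0341), both without overlap and neither passing.

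Markers of mature myeloid cells were set beside the Klf4 values, since Klf4 is a monocyte factor. Summed over 7 monocyte and macrophage markers, the value was 4.64 to 5.27 in old MPP4 against 3.66 to 4.65 in young MPP4, and 5.41 to 6.82 in old MPP3 against 3.75 to 4.69 in young MPP3. Of the 7, 6 had a higher mean in old MPP4 and 7 in old MPP3, while Klf4 was lower in both. Adgre1 and Cd14 were under the median on every array. Among young arrays of set 1, the sum was 4.40 and 4.65 in MPP4 and 4.69 in MPP3. On the young arrays of set 2 it lay between 3.66 and 3.98. The old arrays were all of set 1, and the part of array set in these sums was not tested.

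Of all genes, those whose values ran most like a factor over the 14 arrays were sought for the 3 factors whose 4 group means span the most. For Klf10 they were Zfp608 (Pearson r = 0.942), Heg1 (0.917) and Adamtsl1 (0.905). For Klf4 they were D8Ertd738e (0.885), Rgs22 (0.877) and Rnf149 (0.876), and for Klf12 they were Pnck (0.943), Rbfox3 (0.933) and Csnk2a1 (0.932). Unnamed gene models were left out, and each r is a description over arrays that share group and array set. Zfp608 averaged 2.12 in old MPP4 and 2.27 in young MPP4, against 1.66 in old MPP3 and 2.09 in young MPP3, with old MPP3 the lowest, as for Klf10.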

How the data were processed

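Amplified RNA of sorted cells was hybridised to mouse Gene ST 1.0 arrays. The authors' deposited values are scores made by RMA and then by quantile normalization to an exponential reference distribution. In the table, 92.3% of values were whole ranks of 25307 within 0.01. Of 22115 probe sets, 19980 were listed in the array's gene table, 744 of them with several symbols, which were left out. The remaining probe sets gave 19155 genes. For 76 genes with several probe sets, the one with the highest mean was used. No background signal or detection call was used, and the number of arrays limits the precision.

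Groups were compared with limma 3.58.1 in R 4.3.3 over all genes (Benjamini-Hochberg, threshold 0.05), within a population or an age, and the interaction over all groups. Python 3.11.15 drew the rest. The methods' SAM was approximated with its statistic and label permutations. The alternatives left out dim genes or single arrays, tested every probe set, or changed the variance model, weights, samples, scaling, block, array sets or Xist limit. The scripts were tested on simulated data. The 10 factors and all lists were chosen with earlier results of these data known. Of the factors every array is given. Of each other list, genes past the threshold are named, otherwise up to 2 with the largest statistic in a comparison. Klf14, Bcl11a, Gata1 and Cd48 in young mice, Tfr2 in old mice and Nr4a1 in MPP4 were chosen after their values were seen.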

Additional observations from a re-analysis of the deposited data

Results flagged for a closer look

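Young MPP4 replicate 1 was far from the other 4 young MPP4 arrays for Klf13, at 1.07 against 0.849 to 0.909, and chance alone sets an array apart in about 1 in 20 groups. It was also the highest of its group for Klf4 (1.25), Nr4a1 (2.86) and the summed immediate early genes (33.1). No other factor had an array that stood apart in this way in young MPP4, and the groups of 3 arrays were not examined.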

How the results depend on the processing

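The call of 0 of 8 factors changed in 4 cases. With array weights, 1 factor (Klf2) passed between old and young MPP4, 2 (Klf2 and Klf13) between young MPP4 and young MPP3, and 1 (Klf2) in the interaction, and the genes called were 304, 1808 and 574 in place of 0, 25 and 0. Leaving out single arrays gave 0 to 1 factors in young mice, with Klf2 passing without young MPP3 replicate 1, and 8 to 108 genes. The causes were not tested. Over 710 values of single factors under alternatives, 19 moved by more than 1 SD, 54 had the other sign and 5 gained the threshold; none of these had been called.

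The other counts of genes between young MPP4 and young MPP3 were 208 (SAM type), 59 (dim genes left out), 51 (every probe set), 48 (variance trend), 51 (normal scores) and 271 (array sets). Between old MPP4 and old MPP3 they were 142 (SAM type) and 27 (1 fit of all groups), and between old and young MPP4 21 (SAM type) and 15 without young MPP4 replicate 2. With the replicate block, 0 factors and 0 genes passed in each comparison. The numbers were not shown to pair the arrays. Same-numbered deviations correlated between -0.192 and 0.407 over all comparisons, and not every array correlated best with its own number. Between young MPP4 and young MPP3, replicates 1 and 3 did so (0.407 and 0.178) and replicate 2 did not (-0.148). Between old MPP4 and old MPP3 the values were 0.0485, 0.00773 and -0.0428, each array correlating best with another number. A shared source of same-numbered young arrays was not tested. The SAM-type statistic was not run for the interaction. Klf1 lay under the median of every array.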
